A study of Mus musculus with 8 samples.

Results

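Collagen genes were taken as every gene whose name on the mouse array is Col, a number, the letter a and a number, such as *Col1a1*. There were 44 of them, carried by 91 of the 56605 probes that are not controls. Where a gene had more than 1 probe (30 of the 44), the probe with the highest mean signal over all arrays stood for it. The arrays compared 4 Co mice with 4 Pg mice, all C57BL/6J, male by the study's methods and 12 weeks old. Pg mice had received sonicated *Porphyromonas gingivalis* in 100 μL of saline through a vein, Co mice saline alone, and tissue was taken 18 h later. The sonicate holds broken bacteria, so the injection models bacterial products in blood and not an infection (the sample labels print its dose as 108 CFU, with the exponent lost). The labelled tissue was brown adipose tissue (BAT), and each mouse had 1 array. Of the 22451 genes tested, 36 were collagen genes.

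Collagens are secreted proteins in which 3 chains wind around each other into a triple helix. The fibrillar types (I, II, III, V, XI, XXIV and XXVII) form the cords that give a tissue its tensile strength, type IV forms the sheet-like network of basement membranes around vessels, adipocytes and muscle fibers, and the remaining types line, link or anchor these structures. In adipose tissue, fibroblasts and adipocyte progenitors make most fibrillar collagen, and endothelial and fat cells make much of the basement membrane. The mRNA says nothing of the collagen protein already laid down, which turns over slowly.

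No collagen gene passed the study's level of FDR q under 0.1 between Pg and Co mice. By limma, 0 of the 36 tested collagen genes were called higher and 0 lower, where 2.06% of all genes tested were called higher and 4.19% lower. Those background counts, 463 and 941 genes, were not stable. With each mouse left out they ran from 1 to 467 higher and 1 to 811 lower, with 1 and 1 without Co mouse 3 and 44 and 65 without Co mouse 2, and there were 13 and 4 without normalization between arrays and 0 and 0 with the replicate number as a block. They rose to 797 and 1194 with normexp on the mean signal, and to 719 and 1044 with the median signal and no background subtraction. Since no collagen gene passed, none of them was a differentially expressed gene (DEG, q under 0.1 and fold change above 1.5), whereas 1.19% of all genes were. At an unadjusted p under 0.05 there were 3 (8.33%), against 20.4% of all genes. The same 3 were the collagen genes in which the values of the 4 Pg mice and the 4 Co mice did not overlap. *Col5a3* and *Col18a1* lay higher in Pg mice (5.56%, with 5.77% of all genes) and *Col20a1* lower (2.78%, with 8.57% of all genes). Each of these shares was at or below that of all genes. The lowest q of a collagen gene was 0.121.

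Of the 36 tested collagen genes, 22 had a positive log2 fold change (61.1%, with 47.2% of all genes) and 14 a negative one, with a median of 0.09, and the median of all genes was -0.01. The median was 0.12 for the 11 fibrillar genes, 0.06 for the 4 basement membrane genes, which are those of type IV alone, and 0.09 for the 21 of other types, among them *Col15a1* and *Col18a1*. With the mean of all tested probes of a gene, the basement membrane and other medians fell below 0 (-0.03 and -0.06). By intervals, 15 of the 36 had a 95% interval that lay within a fold change of 1.5 in both directions, and 21 had one that reached past it. For those 21 a fold change of 1.5 lies inside what 4 arrays per group allow.

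**Figure D1:**
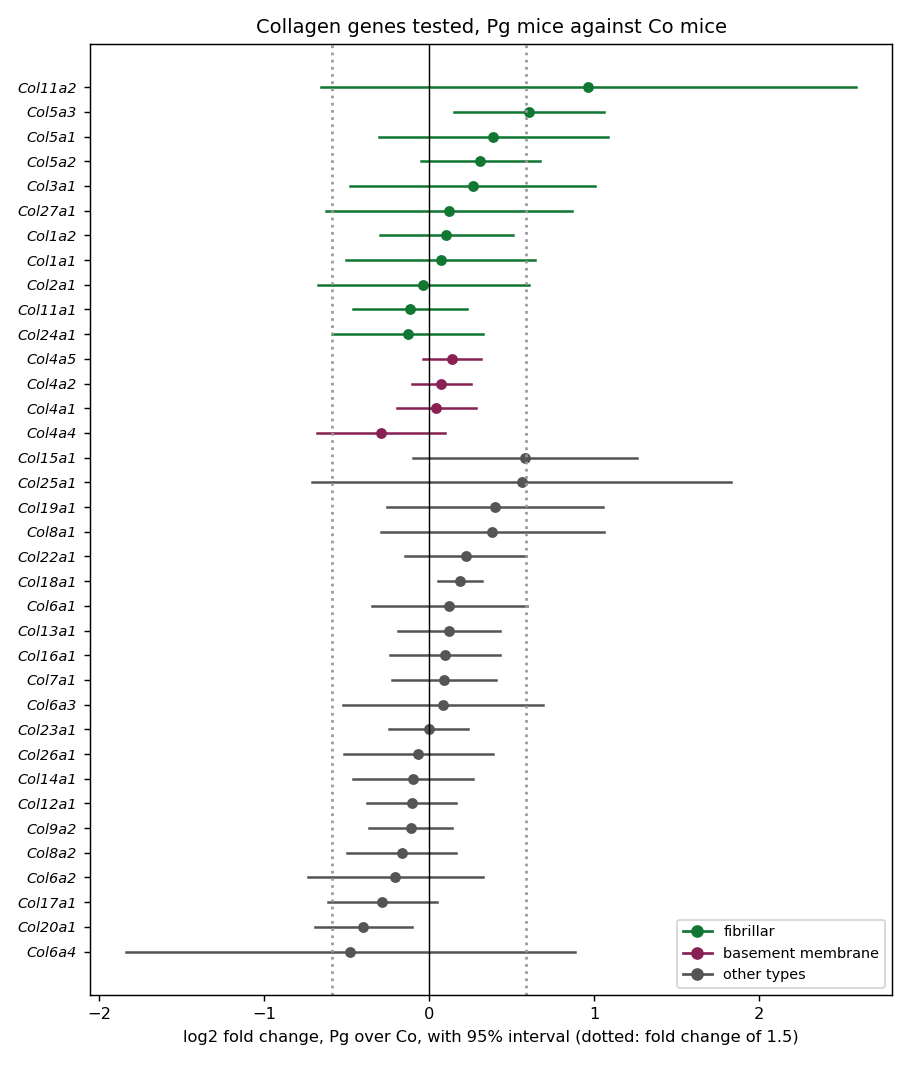
Log2 fold change of Pg over Co (x axis) for the 36 tested collagen genes (y axis), with points for the estimates, lines for their 95% intervals from limma and dotted lines at a fold change of 1.5 in each direction. The medians were 0.12 for fibrillar, 0.06 for basement membrane and 0.09 for other types, and the lines of *Col11a2*, *Col25a1* and *Col6a4* are the widest.

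All values come from Agilent one-color arrays, as background-subtracted signal, quantile-normalized and on the log2 scale. They compare mice for 1 probe and do not rank genes by abundance. A probe was tested when it was well above background on at least 4 of the 8 arrays. Per array, 34760 to 35831 probes were measured above background in Co mice and 31132 to 34064 in Pg mice. The spread of the negative controls was 8.10 to 9.75 intensity units in Co mice and 11.6 to 18.7 in Pg mice, and the groups overlapped in neither. All 8 arrays lay on 1 slide, Co in row 1 and Pg in row 2 with mice of the same number in the same column, so slide row and group cannot be told apart. The labelled tissue did not match all of its markers. Of 10 brown adipocyte markers, 6 were above background on all 8 arrays and *Ucp1*, *Elovl3*, *Slc27a2* and *Bmp8b* on none, whereas all 10 general adipocyte markers and all 10 skeletal muscle markers were above background on every array. In such a bulk sample, fewer cells of a type and less RNA per cell cannot be told apart.

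The chains of type I and type III collagen, the main fibrillar collagens of soft tissue, had overlapping values in both groups. The log2 signal of *Col1a1*, which encodes the α1 chain of type I, was 12.53, 12.35, 13.01 and 13.35 in Co mice 1 to 4 and 12.85, 12.83, 12.52 and 13.30 in Pg mice 1 to 4. The values of the groups interleave, with Co mouse 4 and Pg mouse 4 highest in each. The difference was 0.07 ± 0.25 (SE; limma q = 0.889), and the 95% interval of the fold change ran from 0.706 to 1.56. *Col1a2*, which encodes the partner chain of type I, was at 14.48, 14.18, 14.68 and 14.96 in Co mice and 14.67, 14.76, 14.41 and 14.89 in Pg mice. Again Co mouse 2 was lowest and Co mouse 4 highest. It differed by 0.11 ± 0.17 (SE; limma q = 0.753). *Col3a1*, the single chain of type III, was at 13.25, 12.80, 13.47 and 13.54 in Co mice and at 13.06, 13.93, 12.91 and 14.21 in Pg mice. Here Pg mice 2 and 4 lay above every Co mouse, and Pg mice 1 and 3 lay within the range of the Co mice. The difference of 0.26 ± 0.32 (SE; limma q = 0.659) was smaller than the spread among Pg mice (SD 0.64, n = 4).

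The direction of the type I estimates rested on single mice. *Col1a1* was lower in Pg mice when Co mouse 1 (-0.02), Co mouse 2 (-0.08) or Pg mouse 4 (-0.07) was left out, and *Col1a2* was lower without Co mouse 2 (-0.03) or when all its tested probes were averaged (-0.01). *Col3a1* stayed positive with each mouse left out, from 0.04 without Pg mouse 4 to 0.47 without Pg mouse 3.

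Type V collagen, a minor fibrillar type that is built into type I fibrils and limits their width, had all 3 chains on the positive side. *Col5a3* was at 10.28, 10.24, 10.53 and 10.30 in Co mice and at 10.66, 11.13, 10.54 and 11.44 in Pg mice. Every Pg mouse lay above every Co mouse, Pg mouse 3 by less than any other, just above Co mouse 3. The means were 10.34 ± 0.13 and 10.94 ± 0.42 (SD, n = 4 each). The difference of 0.61 ± 0.20 (SE) is a fold change of 1.52 with a 95% interval of 1.11 to 2.09, and did not pass after adjustment (limma q = 0.132). Without Pg mouse 3 it did (0.74, q = 0.0894), and on the study's own normalized values of the same probe it was 0.30 (q = 0.181). *Col5a1*, a chain found in most type V collagen, was at 10.79, 10.40, 10.89 and 10.97 in Co mice and 10.68, 11.74, 10.53 and 11.65 in Pg mice. As for *Col3a1*, Pg mice 2 and 4 were above all Co mice and Pg mice 1 and 3 were among them. The difference was 0.39 ± 0.30 (SE; limma q = 0.478), and it ran from 0.19 without Pg mouse 2 to 0.59 without Pg mouse 3. *Col5a2* gave 0.31 ± 0.16 (SE; limma q = 0.277), with 7.27 and 7.42 in Pg mice 2 and 4, 6.69 and 6.95 in Pg mice 1 and 3 and 6.63 to 6.85 in Co mice.

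The mark of a collagen can be read from some of the probes. In the triple helix glycine recurs at a fixed step, so its codon, GGN, returns every 9 bases of the coding sequence. Of the 91 collagen probes, 4 (4.40%) carried such a codon at every 9th base from end to end, at least 6 in a row, against 9 of all 56605 probes (0.0159%). These 4 are shown 5′ to 3′ on the strand of the mRNA, with the GGN codons in capitals, because they report the coding part of their transcripts directly. Positions are those of the array files on mm9, where a span longer than the 60-base probe crosses at least 1 intron.

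*Col5a3* (chr9:20590066-20590795, minus strand): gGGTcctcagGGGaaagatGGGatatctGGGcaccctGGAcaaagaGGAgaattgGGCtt
*Col15a1* (chr4:47283786-47283845, plus strand): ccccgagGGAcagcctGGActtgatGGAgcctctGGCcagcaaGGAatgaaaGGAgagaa
*Col6a3* (chr1:92689602-92690594, minus strand): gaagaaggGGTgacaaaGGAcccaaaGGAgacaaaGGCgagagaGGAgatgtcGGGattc
*Col11a2* (chr17:34189287-34189453, plus strand): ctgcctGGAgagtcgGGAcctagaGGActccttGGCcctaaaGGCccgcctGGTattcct

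The triple-helix probe of *Col15a1* is the one that stood for its gene, the ones of *Col5a3* and *Col6a3* were second probes, and that of *Col11a2* was too dim to be tested. For *Col5a3* the triple-helix probe was above background in 2 Co mice and 2 Pg mice and gave 0.21 ± 0.26 (SE; limma q = 0.663), the sign of the brighter probe at chr9:20574592-20574651. For *Col6a3* it gave 0.19 (limma q = 0.416), again the sign of the brighter probe.

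The other fibrillar genes showed what a single array can do to an estimate. *Col11a2*, a chain of the cartilage fibril collagen XI, had the largest positive value of all tested collagen genes, 0.97 ± 0.70 (SE; limma q = 0.450). Its log2 signal was 5.83, 6.13, 6.52 and 6.58 in Co mice and 9.54, 6.79, 6.38 and 6.22 in Pg mice. Pg mouse 1 stood far above all the others, and without it the difference was 0.20 (q = 0.653). *Col24a1*, a fibrillar collagen known from bone, was at 6.60, 6.60, 6.07 and 6.86 in Co mice and 6.25, 6.29, 6.85 and 6.23 in Pg mice. Pg mouse 3 alone reached the upper Co values. The difference was -0.13 ± 0.20 (SE; limma q = 0.733), and it was 0.03 without normalization between arrays. *Col2a1*, *Col11a1* and *Col27a1* had log2 fold changes of -0.03, -0.12 and 0.12, and their groups overlapped. *Col27a1* was above background in 3 Co mice and 1 Pg mouse, so most of its Pg values were not above background.

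**Figure D2:**
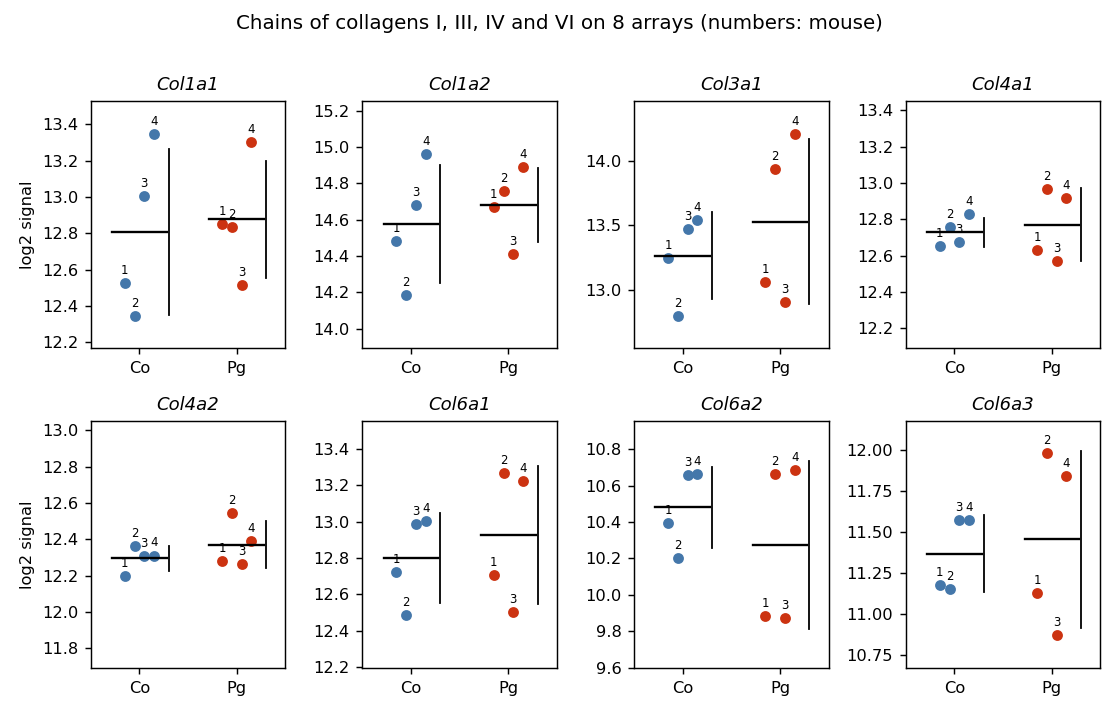
Log2 signal (y axis, its own range in each panel) of 8 main collagen chains in Co mice (blue) and Pg mice (red), with the number of the mouse above each point, a bar at the mean and a line for 1 SD (n = 4). The groups overlap in all 8 panels, and the Pg points of *Col3a1* and the 3 *Col6* genes lie farther apart than the Co points.

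The 4 tested basement membrane genes had a median SD of 0.09 in Co mice and 0.16 in Pg mice, beside 0.33 and 0.42 for the fibrillar genes. *Col4a1* and *Col4a2* encode the chains of the common type IV network and lie head to head on the genome. In the RefSeq annotation of GRCm38.p6 the 300-base window around the start of *Col4a1* shares 78 bases with that of *Col4a2*, which is read from the other strand, and this was the only such overlap among the 35 collagen genes that have a window. The window of *Col4a1* is shown because both genes start within it, 5′ to 3′ on the minus strand (chr8:11312777-11313076), with the shared bases in capitals.

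*Col4a1*: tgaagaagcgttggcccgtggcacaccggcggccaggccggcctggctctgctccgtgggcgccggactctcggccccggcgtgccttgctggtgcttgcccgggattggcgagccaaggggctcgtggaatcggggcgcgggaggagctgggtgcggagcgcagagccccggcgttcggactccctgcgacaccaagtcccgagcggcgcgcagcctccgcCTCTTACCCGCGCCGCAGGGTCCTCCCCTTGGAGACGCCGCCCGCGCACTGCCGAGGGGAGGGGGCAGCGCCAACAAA

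The log2 signal of *Col4a1* was 12.65, 12.76, 12.67 and 12.83 in Co mice and 12.63, 12.97, 12.57 and 12.92 in Pg mice. That of *Col4a2* was 12.20, 12.36, 12.31 and 12.31 in Co mice and 12.28, 12.55, 12.27 and 12.39 in Pg mice. Both genes were highest in Pg mouse 2 and next highest in Pg mouse 4. Their differences were 0.04 ± 0.10 and 0.08 ± 0.08 (SE; limma q = 0.833 and 0.604). The 95% intervals of the fold change, 0.872 to 1.22 for *Col4a1* and 0.929 to 1.19 for *Col4a2*, are among the narrowest of the collagen genes. The estimate for *Col4a1* fell below 0 without Pg mouse 2 (-0.02) or Pg mouse 4 (-0.005). *Col4a5*, a chain of a more restricted network, gave 0.14 ± 0.08 (SE; limma q = 0.313), with a second, dimmer probe at -0.35. *Col4a4* was above background in 4 Co mice and 1 Pg mouse, so it was tested only because of its Co values, and 3 of its Pg values are below background. It gave -0.29 ± 0.17 (SE; limma q = 0.342). *Col4a3* and *Col4a6* were too dim to be tested.

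Type VI collagen forms beaded filaments around cells and is a large part of the matrix of fat and muscle. *Col6a1* was at 12.72, 12.49, 12.99 and 13.01 in Co mice and 12.71, 13.27, 12.50 and 13.22 in Pg mice. *Col6a2* was at 10.40, 10.20, 10.66 and 10.66 in Co mice and 9.88, 10.67, 9.87 and 10.68 in Pg mice. *Col6a3* was at 11.18, 11.15, 11.57 and 11.57 in Co mice and 11.13, 11.98, 10.87 and 11.84 in Pg mice. In all 3, Pg mice 2 and 4 lay close together and above Pg mice 1 and 3. The group differences were 0.12 ± 0.20, -0.20 ± 0.23 and 0.09 ± 0.26 (SE; limma q = 0.751, 0.630 and 0.870). *Col6a1* ran from 0.01 without Pg mouse 2 to 0.26 without Pg mouse 3, and *Col6a2* from -0.34 without Pg mouse 4 to -0.07 without Pg mouse 3. *Col6a3* turned negative without Pg mouse 2 (-0.09) or Pg mouse 4 (-0.04). *Col6a4* was tested on 7 arrays above background, with 7.12 in Co mouse 1 and 4.16 to 4.85 in the other 7 mice, and gave -0.48 ± 0.59 (SE; limma q = 0.663). *Col6a5* and *Col6a6*, which lie beside *Col6a4* on the genome, were too dim to be tested. Neighbors did not always share a sign, as *Col6a1* and *Col6a2* are neighbors with opposite signs, and *Col3a1* and *Col5a2* are neighbors that were both positive.

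Among the other types, *Col18a1* and *Col20a1* came nearest to the threshold. *Col18a1*, named here after its values were seen, encodes a basement membrane collagen whose end is cut off as endostatin. It was at 9.24, 9.12, 9.17 and 9.14 in Co mice and 9.45, 9.32, 9.29 and 9.34 in Pg mice. Every Pg mouse lay above every Co mouse, with an SD of 0.05 in Co and 0.07 in Pg mice. The difference of 0.19 ± 0.06 (SE), a fold change of 1.14 with a 95% interval of 1.04 to 1.25, had limma q = 0.121. It passed the level with another background correction (normexp on the mean signal, 0.23, q = 0.0624), with the median signal and no background subtraction (0.23, q = 0.0771) and with the study's own normalized values (0.23, q = 0.0953). None of these settings brought it near a fold change of 1.5.

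*Col20a1*, a collagen attached to the surface of fibrils, was at 8.22, 8.08, 8.21 and 8.15 in Co mice and 7.62, 7.47, 7.99 and 7.98 in Pg mice. All Pg mice were below all Co mice, Pg mice 1 and 2 by the most. The difference of -0.40 ± 0.13 (SE; limma q = 0.126) had a 95% interval of 0.619 to 0.930 as a fold change. Without Pg mouse 3 it passed (-0.47, q = 0.0978), and the groups overlapped where arrays were not normalized to each other.

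*Col15a1*, the close relative of *Col18a1* in basement membranes, had 2 tested probes that went opposite ways. The triple-helix probe shown above was at 5.35, 4.97, 3.97 and 4.86 in Co mice and 5.75, 5.04, 5.52 and 5.18 in Pg mice. Co mouse 3 was far below the rest, and the difference of 0.58 ± 0.29 (SE; limma q = 0.284) was 0.31 without it. The second probe, at chr4:47325273-47325332, gave -0.70 ± 0.31 (SE; limma q = 0.229), but it was above background in 4 Co mice and only 2 Pg mice, while the triple-helix probe was above it in all. Their mean gave -0.06, and no direction is given for the gene.

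The remaining genes at the ends of the range also overlapped between groups. *Col25a1*, a transmembrane collagen, was at 5.10, 5.73, 5.47 and 5.70 in Co mice and 7.68, 4.75, 6.08 and 5.73 in Pg mice. As for *Col11a2*, Pg mouse 1 stood far above the rest, and the difference of 0.56 ± 0.55 (SE; limma q = 0.578) was 0.02 without it. *Col17a1*, a transmembrane collagen known from hemidesmosomes of skin, was at 6.90, 6.70, 6.48 and 6.30 in Co mice and 6.36, 6.40, 6.42 and 6.07 in Pg mice. Of the Co mice, mouse 4 lay within the range of the Pg mice, and the difference was -0.28 ± 0.14 (SE; limma q = 0.281), and -0.12 without normalization between arrays. *Col8a2*, a short-chain network collagen, was at 7.21, 7.37, 7.82 and 7.79 in Co mice and 7.39, 7.47, 7.33 and 7.35 in Pg mice, with a difference of -0.17 ± 0.14 (SE; limma q = 0.526). Its Pg values lay close together inside the range of the Co mice.

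**Figure D3:**
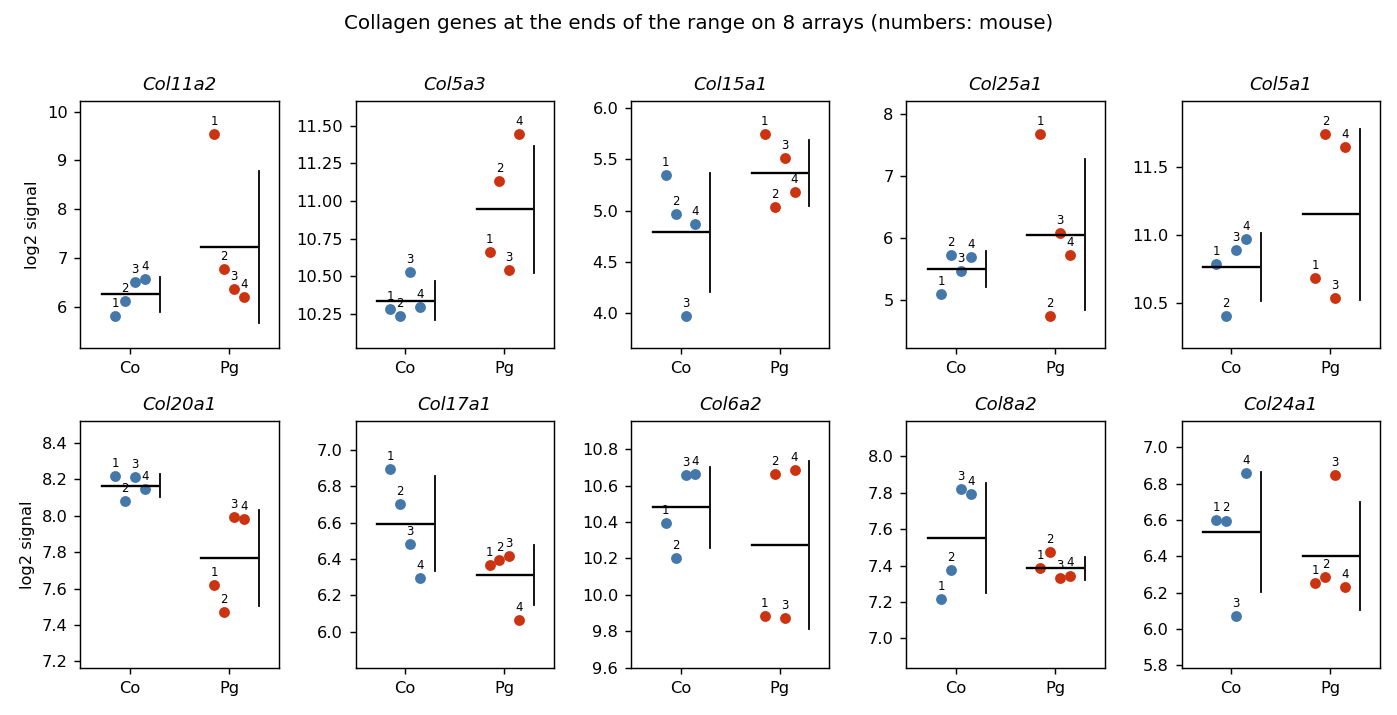
Log2 signal (y axis, its own range in each panel) in Co mice (blue) and Pg mice (red) of the 5 highest (top row) and 5 lowest (bottom row) log2 fold changes among the 32 collagen genes above background on all 8 arrays, with mouse numbers, means and 1 SD (n = 4). The groups are apart for *Col5a3* and *Col20a1*, and Pg mouse 1 sets the means of *Col11a2* (9.54) and *Col25a1* (7.68).

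Not every collagen was detected. In all, 32 genes were above background on all 8 arrays, and *Col6a4*, *Col4a4*, *Col27a1* and *Col19a1* on 4 to 7. The 8 not tested were *Col4a3*, *Col4a6*, *Col6a5*, *Col6a6*, *Col9a1*, *Col9a3*, *Col10a1* and *Col28a1*, among them cartilage and kidney collagens. *Col6a6*, *Col9a3* and *Col10a1* passed on no array, and no collagen probe was saturated. *Col6a5* was above background on Pg mouse 3 alone, at 8.0, with 3.92 in Pg mouse 1 and 1.98 to 2.02 in the other 6 mice. This is 1 of 4 Pg arrays, and the gene was not tested. The chosen probe of *Col4a3* was above background in 3 Co mice and that of *Col9a1* in 2 Co mice, each in 0 Pg mice. The other *Col4a3* probe was above background in 0 Co mice and 1 Pg mouse, and the dimmest signal that counted as measured was higher on Pg arrays, so no fold can be given.

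Where a gene had further tested probes, they mostly pointed the same way. For 17 collagen genes there were 23 further tested probes, of which 16 had the sign of the chosen probe and 7 the opposite sign, and 0 passed q under 0.1 (3 of all 59 tested collagen probes had an unadjusted p under 0.05). *Col1a1* had 0.13 and 0.06 on its other probes beside 0.07, and *Col3a1* had 0.20 and 0.31 beside 0.26. *Col6a2* had -0.46 and -0.13 beside -0.20. *Col1a2* had 0.05 and -0.18 beside 0.11.

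Most collagen genes of fibrils and beaded filaments shared a pattern of high and low mice within each group. The median deviation of the 11 fibrillar genes from their own means was -0.15, -0.40, 0.04 and 0.15 on the log2 scale in Co mice 1 to 4, and -0.21, 0.30, -0.23 and 0.49 in Pg mice 1 to 4. For the 4 tested type VI genes it was -0.06, -0.28, 0.15 and 0.15 in Co mice and -0.22, 0.35, -0.50 and 0.33 in Pg mice. Pg mice 2 and 4 were high and Pg mice 1 and 3 low in both, and Co mouse 2 was the lowest Co mouse in both. The median of the 4 type IV genes, at -0.03, 0.21, -0.12 and 0.10 in Pg mice, had smaller steps, and only *Col4a1* and *Col4a2* of them were higher in both Pg mice 2 and 4 than in Pg mice 1 and 3.

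*Col8a1*, a short-chain collagen of vessel walls named here after its values were seen, gave the plainest case outside these types. It was at 11.64, 11.35, 11.80 and 11.51 in Co mice and 11.54, 12.58, 11.31 and 12.41 in Pg mice. Pg mice 2 and 4 were far above all Co mice and Pg mouse 3 below them, and the difference of 0.38 ± 0.29 (SE; limma q = 0.471) did not pass. It ran from 0.18 without Pg mouse 2 to 0.60 without Pg mouse 3. Of the 36 tested collagen genes, 10 had their highest value in Pg mouse 2 (27.8%, with 13.6% of all genes), 8 in Pg mouse 4 (22.2%, with 11.4%) and 7 in Co mouse 4 (19.4%, with 13.9%). There were 4 each in Co mouse 1 and Pg mouse 1, and 1 each in Co mice 2 and 3 and Pg mouse 3. The SD was larger in Pg mice than in Co mice for 20 of the 36 (55.6%), with 52.4% for all genes.

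**Figure D4:**
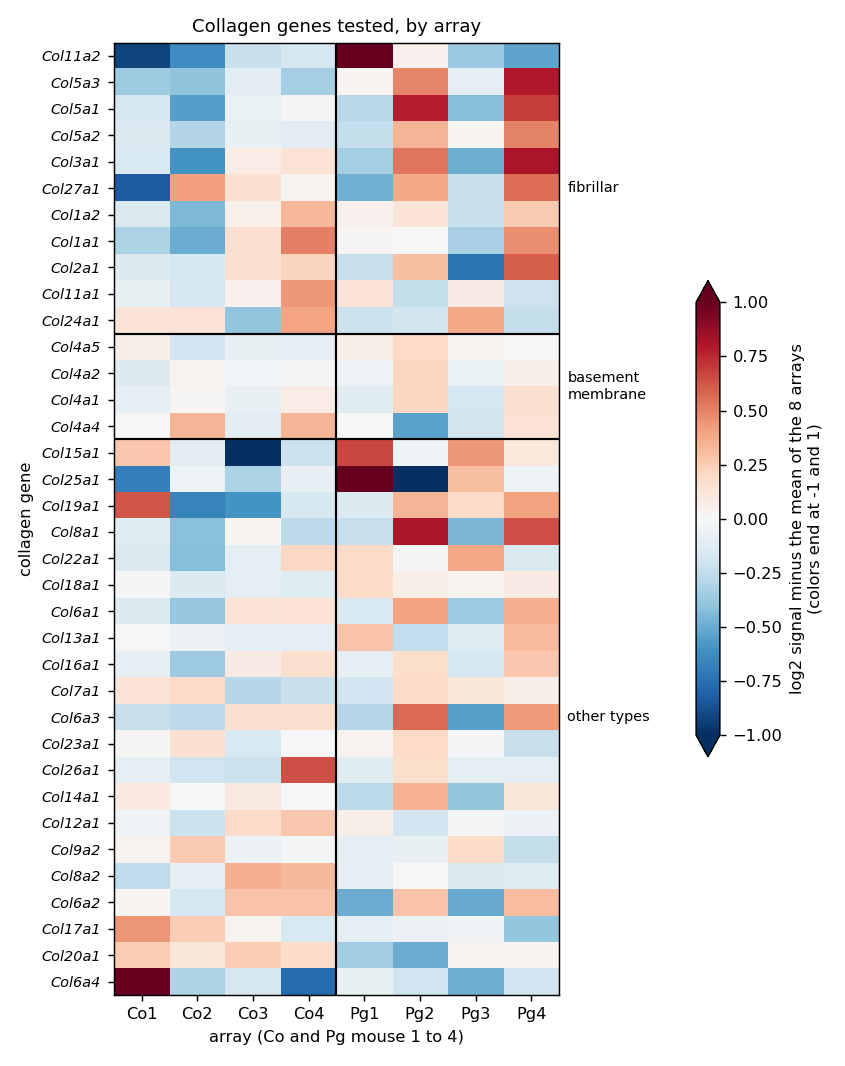
Log2 signal of each of the 36 tested collagen genes (rows, by type) on each array (columns) minus the mean of that gene over the 8 arrays, in red above and blue below it. Of the 11 fibrillar genes, 8 are above their mean in Pg2 and 8 in Pg4, against 5 in Pg1 and 3 in Pg3, and *Col11a1*, *Col11a2* and *Col24a1* are among those that depart from the pattern.

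The medians of fibroblast and macrophage markers moved with this pattern. Of 10 fibroblast markers, 9 were above background on all 8 arrays and *Tcf21* on 1. Their median deviation was -0.07, -0.32, 0.16 and 0.17 in Co mice and -0.14, 0.27, -0.33 and 0.17 in Pg mice. Not all followed it, as *Fbln1* was highest in Pg mouse 1 (9.59). All 8 macrophage markers were above background on all arrays, with medians of -0.28, -0.55, 0.16 and 0.10 in Co mice and -0.01, 0.65, -0.69 and 0.44 in Pg mice. *Lyz2*, the lysozyme of macrophages and neutrophils, was at 12.91, 12.15, 13.04 and 13.15 in Co mice and 12.98, 14.22, 12.32 and 14.14 in Pg mice. In each of the 8 macrophage markers the SD was larger in Pg mice, and the median log2 fold change was 0.36 with 0 of 8 called (limma; 0 of 8 at an unadjusted p under 0.05). By flow cytometry, the study reported no significant difference in macrophage percentages in BAT between the groups. The medians of the 10 skeletal muscle markers cannot be compared between arrays in this way, because the brightest of them, such as *Tnnt3* and *Tnni2*, lie at the top of the scale, where quantile normalization gives every array the same values. The dimmer *Myh4*, a fast myosin, ran from 11.38 in Pg mouse 1 to 17.07 in Pg mouse 2. In Pg mice 1 to 4 the medians were 0.54, -0.23, -0.22 and 0.12 for adipocyte markers, 0.31, -0.48, 0.29 and 0.14 for Schwann cell markers and 0.03, 0.15, 0.44 and -0.04 for tendon and cartilage markers. None of these lists put Pg mice 2 and 4 above Pg mice 1 and 3. The lists of collagen synthesis, fibril-associated, breakdown and receptor genes, described below, did so. The breakdown medians were -0.04, 0.31, -0.13 and 0.22 in Pg mice 1 to 4, and the synthesis medians took smaller steps. Mural, endothelial and brown adipocyte medians stayed between -0.10 and 0.14 in Pg mice. The part of these cells in the collagen values was not tested. Of the other marker lists, 1 endothelial gene of 10 tested was called higher, *Kdr* at 0.57 (limma q = 0.0573), and 1 skeletal muscle gene of 10 lower, *Atp2a1* at -0.44 (limma q = 0.0411), where 2.06% and 4.19% of all genes were. Neither call held with the replicate number as a block, under which 0 genes in all were called. Of the 10 endothelial markers, 7 were positive and 3 negative. *Pecam1* was among the negative ones, at -0.20 (limma q = 0.151) with its groups apart. None was called among 8 mural, 7 Schwann cell, 7 tendon and cartilage, 10 adipocyte, 6 brown adipocyte and 9 fibroblast markers tested (limma; 0, 1, 2, 1, 2 and 0 at an unadjusted p under 0.05). Of all genes, 20.4% were under that p.

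**Figure D5:**
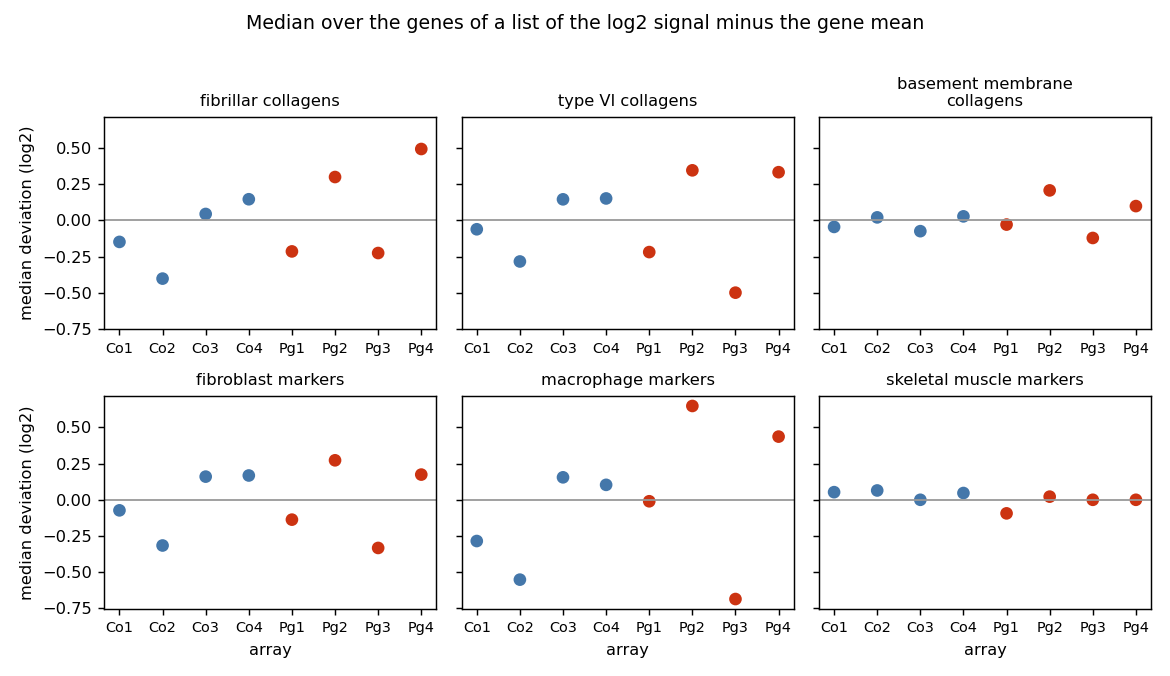
Median over the genes of each list of the log2 signal minus the mean of the gene (y axis), by array (x axis), Co in blue and Pg in red. Fibrillar and type VI collagens, fibroblast markers and macrophage markers are higher in Pg2 and Pg4 than in Pg1 and Pg3. The skeletal muscle medians lie near 0, where quantile normalization holds the brightest probes.

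Collagen chains need enzymes and chaperones to fold and to be cut and crosslinked, and these genes gave small differences too. Of 35 synthesis and processing genes, 33 were tested and 0 were called in either direction (limma), with 3 at an unadjusted p under 0.05. Among all genes, 2.06% were called higher, 4.19% lower, and 20.4% were under that p. The median log2 fold change was 0.07. *Bmp1*, which cuts the C-propeptide from fibrillar procollagen, was at 10.87, 10.68, 10.83 and 10.91 in Co mice and 11.08, 11.35, 10.95 and 11.35 in Pg mice. Every Pg mouse was above every Co mouse, but the difference of 0.36 ± 0.11 (SE) had limma q = 0.114. *Lox*, a crosslinking oxidase, was at 9.11, 9.39, 9.52 and 9.22 in Co mice and 9.98, 9.85, 9.50 and 9.51 in Pg mice, a difference of 0.40 ± 0.14 (SE; limma q = 0.146). Its groups met at Co mouse 3. Both passed with another background correction (q = 0.0684 for *Bmp1* and 0.0879 for *Lox*). On the study's own values they shrank to 0.16 and 0.26, and with the mean of all tested probes to 0.10 and 0.24 (q = 0.617 for *Bmp1*). *Serpinh1*, the collagen chaperone, and *P4hb*, a subunit of prolyl 4-hydroxylase, gave 0.14 and 0.01 (both named after their values were seen).

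All 20 genes for proteins that sit on collagen fibrils or in the matrix beside them were tested and 0 were called (limma), with 3 at an unadjusted p under 0.05 and a median of 0.01. Of all genes, 2.06% were called higher, 4.19% lower, and 20.4% were under that p. *Ccn2*, a matrix protein induced by TGF-β, was at 13.81, 13.69, 13.79 and 13.68 in Co mice and 13.52, 13.66, 13.49 and 13.47 in Pg mice. Its groups were apart, by a small step, and the difference was -0.21 ± 0.06 (SE; limma q = 0.120). *Fbn1*, the fibrillin of microfibrils, was at 10.99, 10.60, 11.07 and 10.99 in Co mice and 11.25, 11.80, 11.04 and 11.94 in Pg mice, a difference of 0.59 ± 0.21 (SE; limma q = 0.158). Pg mice 2 and 4 were again the highest. *Ccn2* passed with another background correction (q = 0.0582), with the median signal and no background subtraction (q = 0.0651) and on the study's own values (q = 0.0785), and *Fbn1* with the first of these alone (q = 0.0973).

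Among the genes of collagen breakdown, *Timp1* alone passed, where 2.06% of all genes were called higher. Of 12 genes, 10 were tested, and *Mmp9* and *Mmp13* were above background on no array. *Timp1* encodes an inhibitor of matrix metalloproteinases and was higher in Pg mice. It was at 9.36, 9.54, 9.95 and 9.36 in Co mice and 10.24, 10.23, 9.95 and 10.05 in Pg mice. Pg mouse 3 lay only just above Co mouse 3, the highest Co mouse, and the other 3 Pg mice lay further above all Co mice. The difference of 0.57 ± 0.14 (SE; limma q = 0.0807) was a fold change below 1.5, so *Timp1* was no DEG. The call was lost when any 1 mouse other than Pg mouse 3 was left out (q = 0.106 to 0.163). It was also lost with the replicate number as a block (q = 0.167) and under 4 other settings (q = 0.101 to 0.196). The next lowest p was that of *Timp3*, which gave -0.21 (limma q = 0.260), and -0.06 as the mean of its tested probes. The collagenase genes tested, *Mmp8* and *Mmp14*, gave 0.16 and 0.002, and *Mmp2* gave 0.14 (limma q = 0.650, 0.996 and 0.739). *Mmp8* was above background in 4 Co mice and 1 Pg mouse. It was tested only because of its Co values, and most of its Pg values were not above background.

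Of 12 collagen receptors, 11 were tested and 0 were called (limma; 0 at an unadjusted p under 0.05). Among all genes, 2.06% were called higher, 4.19% lower, and 20.4% were under that p. The estimates of 10 were positive, with a median of 0.14, where 47.2% of all genes were positive. The lowest p belonged to *Itgb1*, the β1 chain shared by the collagen-binding integrins, and to *Adgrg1*, a receptor for type III collagen. They gave 0.11 and -0.14 (limma q = 0.320 and 0.341), and *Itgb1* was at -0.11 when its tested probes were averaged.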

How the data were processed

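Total RNA (200 ng per mouse) was labelled with Cy3 and hybridized to Agilent one-color mouse arrays. Scanner output of Feature Extraction 11.0.1.1 (version from the submitters' processing notes) was deposited per mouse and gives each spot's intensity before arrays are made comparable. The intensity used here had its background subtracted and was detrended by that software. The authors also deposited their quantile-normalized log2 values of 28067 probes, which served as an alternative. Beside them, columns of fold changes, p-values and q-values were not used.

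Spots marked as population outliers (90 to 150 per array) were left out, and the processed intensity was averaged per probe, quantile-normalized over the 8 arrays, given a floor of 1 and log2-transformed. Of 56605 probes, 33819 stood well above background in 4 or more mice and entered the test (lmFit and eBayes, limma 3.58.1 in R 4.3.3, two-sided, tables read with data.table version 1.17.8) with Benjamini-Hochberg adjustment over all of them. The fit was checked on simulated data. A gene's level and test are those of its brightest probe, 22451 genes in all. No label says more of the replicates than that each is a separate sample of its group, so p-values measure the spread between these samples. Precision is limited by the number of arrays.

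The collagen genes, the pathway and marker lists and the naming rule were chosen with earlier results of these data known. Named collagen genes were 8 fixed chains of types I, III, IV and VI and, among those above background on all 8 arrays, the 5 highest and 5 lowest log2 fold changes. Of each pathway list, genes with q under 0.1 and the 2 with the lowest p were named. No set test was run. Alternatives were normexp on the mean signal (offset 50), the median signal with its background left in, scaling to the 75th percentile, no normalization, the deposited log2 values, other filters on dim probes, the mean of all tested probes of a gene, the replicate number as a block, and each mouse left out. Choosing the probe by its mean linear signal was added after seeing the data. Probe positions are those of the array files (mm9). Promoter windows are from RefSeq (GRCm38.p6).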

Additional observations from a re-analysis of the deposited data

Results flagged for a closer look

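In groups of 4 mice, the highest or lowest value stood apart from the others in 4 of 72 collagen gene groups by Dixon's test, which chance alone gives in about 1 of 20. The log2 signal of *Col17a1* was 6.07 in Pg mouse 4, and 6.36 to 6.42 in the other Pg mice. The log2 signal of *Col24a1* was 6.85 in Pg mouse 3, and 6.23 to 6.29 in the other Pg mice. *Col26a1*, named for this reason, was at 8.60 in Co mouse 4, with 7.74 to 7.85 in the other Co mice, and at 8.13 in Pg mouse 2, with 7.83 to 7.86 in the other Pg mice. *Col11a2* and *Col25a1*, whose Pg mouse 1 was the highest of all 8 mice, did not reach the same limit.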

How the results depend on the processing

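Precision was limited by 4 arrays per group and by dim probes, since 8 of 44 collagen genes were not tested and probes were called above background less often on Pg arrays. No alternative called a collagen gene lower or made one a DEG except leaving out Pg mouse 3. One collagen gene was called higher, *Col18a1*, under 3 alternatives (1 each with normexp on the mean signal, on the median signal without background subtraction and on the deposited values). The collagen genes whose groups did not overlap numbered 1 higher instead of 2 with normexp, the median signal, scaling to the 75th percentile, no normalization, the deposited values and the mean of all tested probes, 3 higher with no filter on dim probes, and 0 lower instead of 1 without normalization. The share of all genes without overlap was not counted under these settings. Synthesis and processing genes called higher were 2 with normexp or with the median signal, settings that each change both the signal and its background correction, and 1 with probes above background on all 8 arrays. The median of the other collagen types moved from 0.09 to -0.0043 on the deposited values and -0.058 with the mean of all tested probes, which also took that of the basement membrane genes from 0.06 to -0.032, and the cause was not tested. Signs reversed for *Col24a1* without normalization (0.032), and with the mean of all tested probes for *Col15a1* (-0.058), *Col1a2* (-0.0091) and *Itgb1* (-0.11). The median log2 fold change of all genes moved by less than 0.1 under every alternative.

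With each mouse left out in turn, collagen genes called higher numbered 0 to 1, called lower 0 to 1 and DEGs 0 to 1. The nonzero counts came without Pg mouse 3, with *Col5a3* at 0.74 (q = 0.0894) and *Col20a1* at -0.47 (q = 0.0978). Genes without overlap numbered 2 to 4 higher and 1 to 2 lower, the highest counts without Co mouse 1 for higher and without Co mouse 4 or Pg mouse 3 for lower. With a mouse fewer, the groups of any gene come apart more easily. The share of all genes without overlap was not counted here, so these counts say nothing particular to collagen genes. The medians ran from 0.01 to 0.16 for all tested collagen genes, 0.04 to 0.29 for fibrillar, -0.003 to 0.11 for basement membrane and -0.065 to 0.071 for other types. Synthesis and processing genes called higher numbered 0 to 1 and called lower 0 to 0. The estimates of *Col1a1* ran from -0.082 to 0.25, of *Col1a2* from -0.025 to 0.23, of *Col4a1* from -0.022 to 0.11 and of *Col6a3* from -0.090 to 0.28, each across 0.

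With the replicate number as a block, 0 collagen genes and 0 genes in all were called (limma; 4 collagen genes at an unadjusted p under 0.05). In this balanced design the block leaves every difference as it was and changes only the errors. The deviations of same-numbered Co and Pg mice correlated at 0.06, -0.03, -0.07 and 0.18, so the numbers were not taken to pair the mice. Same-numbered mice also lay in the same slide column, so the block is one for slide column too. It lost the call of *Timp1* (q = 0.167). That call was also lost with scaling to the 75th percentile (q = 0.107), no normalization (0.196), no filter on dim probes (0.130) and the mean of all tested probes (0.101).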
